A study of Mus musculus with 4 samples.

Results

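Expression of 8 mouse genes of cholesterol synthesis and its sterol feedback was followed in the left ventricle 3 days after experimental myocardial infarction. The genes are Hmgcs1, Idi1, Fdft1, Sqle, Lss and Cyp51, which encode enzymes of the pathway, and Srebf2 and Insig1, which encode regulators of it. They were chosen by gene symbol, and all 8 were found among the 17550 genes with reads in any library.

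RNA came from C57BL/6 mice, 8 weeks old, either wild type or Neil3-/-, and 1 library was sequenced from total RNA for each of 4 groups: infarcted and non-infarcted left ventricle of each genotype. Neil3 is a DNA glycosylase of base excision repair. All 4 groups had an infarct, so the non-infarcted tissue is from operated hearts and not from untouched ones. The labels name neither the number of mice behind a library nor the deleted part of Neil3. With 1 library a group there is no replicate check and no test between groups, and every interval given here covers counting error alone.

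In wild type, Neil3 had 62 reads in non-infarcted and 155 in infarcted tissue, and it had 391 and 763 in the corresponding libraries labelled knockout. Its reads thus go against the labels, or lie outside the deleted part, and the knockout libraries are called here by their labels. Totals of uniquely assigned reads were between 14.3 M and 18.2 M a library. The 8 genes had 69 to 1874 reads each, over 55.7% to 99.9% of the gene model's length.

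As background, cholesterol is built from acetyl-CoA through mevalonate, the isoprenoid units, squalene and lanosterol. Transcription of most of the enzymes is driven by SREBP-2, the product of Srebf2. When membranes hold enough sterol, INSIG proteins keep SREBP-2 and its escort SCAP in the endoplasmic reticulum; when sterol is scarce, SREBP-2 moves to the Golgi, is cut by the site-1 and site-2 proteases and enters the nucleus. There it binds sterol regulatory elements, usually beside sites for NF-Y and Sp1. Insig1 is itself a target of SREBP-2. An infarct at 3 days contains dying muscle and many neutrophils, monocytes and macrophages.

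Promoter sequence was looked up for the 8 genes because they share this regulator. RefSeq's promoter table (build GRCm38.p6, whereas the submitters' processing notes name mm9) held 6 of them: Hmgcs1, Idi1, Lss, Cyp51, Srebf2 and Insig1. The 250 bases before each gene's start were searched on both strands. The sterol regulatory element core TCACNCCAC lay in 1 of the 6, Hmgcs1, and in 1.04% of all 27025 promoters. A shorter core that overlaps it, TCACCCCA, was added after the sequences had been read; it lay in Hmgcs1 and Srebf2 and in 1.26% of all promoters. The NF-Y box CCAAT was in 6 of 6 and in 34.5% of all, and the Sp1 box GGGCGG was in 6 of 6 and in 32.9% of all. A match of letters is a description and does not show binding. Shown are the 2 promoters with the shorter core and that of Idi1, which carried a pair of NF-Y boxes close to the start; capitals mark the shorter core and the NF-Y box, which reads ATTGG where it lies on the opposite strand. All 3 stretches lie on the plus strand within the 250 bases before the gene's start, and that of Idi1 reaches it: Hmgcs1 at chr13:119690154-119690281, Srebf2 at chr15:82147047-82147174 and Idi1 at chr13:8885478-8885605.
Hmgcs1: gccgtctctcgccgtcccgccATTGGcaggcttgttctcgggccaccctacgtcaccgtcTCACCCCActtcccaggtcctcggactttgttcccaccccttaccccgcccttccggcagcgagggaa
Srebf2: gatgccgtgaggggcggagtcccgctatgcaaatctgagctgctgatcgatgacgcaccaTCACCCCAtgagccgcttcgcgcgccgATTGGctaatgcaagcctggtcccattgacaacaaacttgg
Idi1: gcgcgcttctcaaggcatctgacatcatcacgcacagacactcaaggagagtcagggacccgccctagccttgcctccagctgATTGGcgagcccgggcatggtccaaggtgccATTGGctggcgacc
In Hmgcs1 the core begins 137 bases before the start, and in Srebf2 it begins 162 bases before it. In Idi1 the NF-Y boxes begin 45 and 14 bases before the start.

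Levels are given as RPKM, reads scaled to gene length and to the library's total, so that they can be compared between genes. The sum over the 8 genes was 59.96 RPKM in wild-type non-infarcted and 98.5 in wild-type infarcted tissue, against 62.4 and 86.3 in the libraries labelled knockout. The infarcted libraries were the higher ones in each genotype, and wild-type infarcted tissue was the highest of the 4. Hmgcs1 had the highest level in 3 libraries, and in the infarcted library labelled knockout its counting interval overlapped that of Srebf2. Lss was the lowest in all 4 libraries, although in the non-infarcted library labelled knockout its interval overlapped that of Sqle. Insig1, Cyp51 and Idi1 lay next to each other in the non-infarcted libraries, and each interval overlapped that of the next gene. In the non-infarcted library labelled knockout, the intervals of Insig1 (6.12 to 7.81) and Idi1 (4.25 to 5.63) did not overlap. There the interval of Fdft1 overlapped that of Insig1 as well. In infarcted tissue of both genotypes, the order from Insig1 down to Sqle was one of neighbours whose intervals overlapped, with Fdft1 and Sqle at its lower end.

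**Figure D1:**
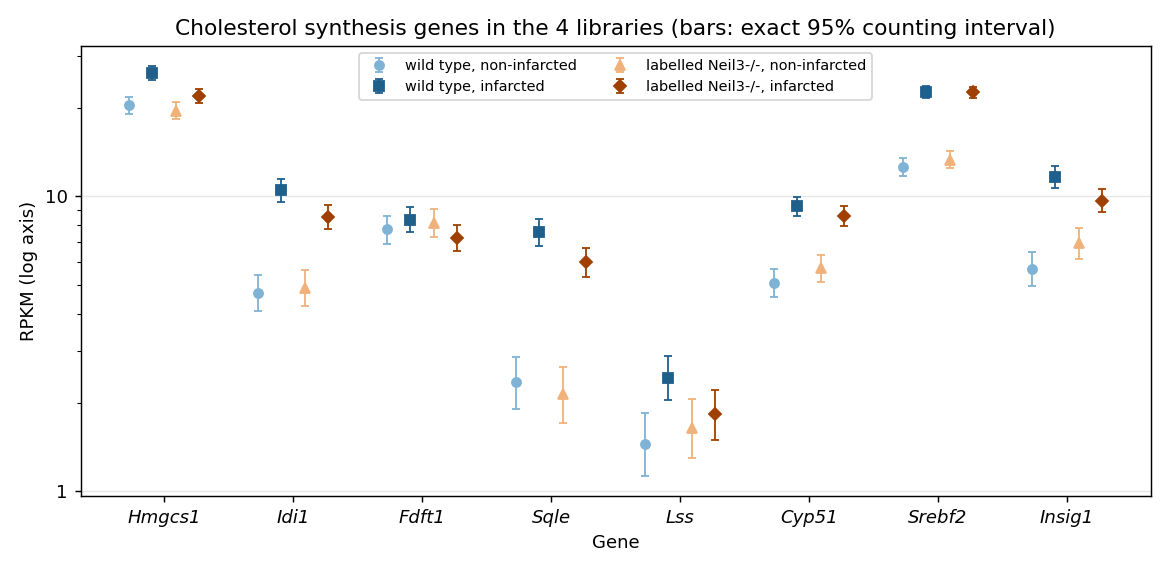
RPKM (log axis) of the 8 genes in the 4 libraries; points are single libraries and bars are exact 95% counting intervals. Sqle stands at 2.35 and 2.14 RPKM in non-infarcted tissue and at 7.55 and 5.98 in infarcted tissue, while the 4 points of Fdft1 lie between 7.24 and 8.34.

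Of the enzymes before squalene, Hmgcs1 (Entrez 208715), which condenses acetoacetyl-CoA with acetyl-CoA to HMG-CoA, had 20.4 RPKM in non-infarcted and 26.2 in infarcted tissue of wild type, and 19.6 and 21.9 respectively in the labelled knockout. The infarcted library was the higher in both genotypes, by 1.29-fold (1.19 to 1.40) in wild type and 1.12-fold (1.03 to 1.22) in the labelled knockout. Idi1 (Entrez 319554), the isomerase that makes the reactive isoprenoid unit, stood at 4.70 and 10.5 RPKM in wild type and 4.90 and 8.52 in the labelled knockout. Both infarcted libraries lay well above both non-infarcted ones, with ratios of 2.23 (1.89 to 2.64) and 1.74 (1.47 to 2.06). Fdft1 (Entrez 14137), squalene synthase, the first enzyme committed to sterols, differed from the rest. Its levels were 7.73, 8.34, 8.16 and 7.24 RPKM in the same order of libraries, and both infarct ratios, 1.08 (0.931 to 1.25) and 0.888 (0.765 to 1.03), had intervals that include 1.

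Among the enzymes that act on squalene and lanosterol, Sqle (Entrez 20775), squalene epoxidase, a flux-controlling step, had the largest infarct ratios of the 8 genes. With 96 and 358 reads in wild type and 84 and 299 in the labelled knockout, it had 2.35, 7.55, 2.14 and 5.98 RPKM. The infarcted library was 3.22-fold higher (2.56 to 4.07) in wild type and 2.79-fold higher (2.19 to 3.60) in the labelled knockout. Lss (Entrez 16987), lanosterol synthase, had 69, 134, 75 and 106 reads, the fewest of the set, and 1.45, 2.43, 1.64 and 1.82 RPKM. Its ratio was 1.68 (1.24 to 2.27) in wild type, whereas in the labelled knockout it was 1.11 with an interval that includes 1 (0.818 to 1.51). Cyp51 (Entrez 13121), lanosterol demethylase, had 5.09, 9.26, 5.72 and 8.60 RPKM. Both infarcted libraries were higher, by 1.82-fold (1.59 to 2.08) in wild type and 1.502-fold (1.32 to 1.71) in the labelled knockout.

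Of the regulators, Srebf2 (Entrez 20788) had 12.6 and 22.6 RPKM in wild type and 13.3 and 22.5 in the labelled knockout. Its levels were nearly the same in the genotypes, and infarcted tissue was higher by 1.79-fold (1.65 to 1.95) and 1.69-fold (1.56 to 1.83). Insig1 (Entrez 231070), which retains SREBP-2 in the endoplasmic reticulum, had 5.69, 11.6, 6.93 and 9.68 RPKM. The labelled knockout was the higher genotype in non-infarcted tissue and the lower one in infarcted tissue, so that the infarct ratio was 2.05 (1.75 to 2.40) in wild type and 1.40 (1.20 to 1.63) in the labelled knockout.

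To set the 8 genes beside all others, log2 ratios of RPKM + 1 were taken for every gene with at least 1 RPKM in 1 of the libraries compared; this scale understates the ratios of low genes. In wild type, Sqle and Idi1, 2 of the 8 genes, passed 2-fold upward with infarction and none passed it downward, where 6.21% of 12515 genes were 2-fold higher and 3.6% 2-fold lower. At 1.5-fold, 5 of the 8 were higher (Sqle, Idi1, Insig1, Srebf2 and Cyp51) and none lower, against 21.6% and 9.56% of all genes. In the labelled knockout, 1 of the 8 (Sqle) was 2-fold higher and none 2-fold lower, against 8.2% and 6.07% of 12563 genes; at 1.5-fold, 3 were higher (Sqle, Srebf2 and Idi1) and none lower, against 25% and 12.4%. Under TMM scaling, 1 of the 8 genes was 2-fold higher and 0 lower in wild type, against 3.64% and 6.15% of all genes. For the labelled knockout, 0 of the 8 were 2-fold higher and 0 lower under TMM, against 4.37% and 8.45%. The counting interval lay wholly above 1 for 7 of the 8 in wild type, all but Fdft1, and for 51.8% of all genes. In the labelled knockout it did so for 6 of the 8, all but Fdft1 and Lss, and for 53.6% of all genes.

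The median log2 ratio of the 8 was 0.77 in wild type, beside 0.21 over all genes, and 0.47 in the labelled knockout, beside 0.24. Because the median gene itself is above 0, a rescaling by TMM or by the median ratio brings it to 0.01 in wild type and to 0.03 and 0.01 in the labelled knockout. Relative to the median gene, 7 of the 8 were higher in wild type and 5 in the labelled knockout. Under both rescalings, Fdft1 in wild type and Hmgcs1 and Lss in the labelled knockout pass from above 0 to below it, and the other genes keep their side in both infarct comparisons.

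The genotypes were then compared within each tissue. In infarcted tissue the labelled knockout had the lower value for all 8 genes, with log2 ratios from -0.29 (Sqle) to -0.00 (Srebf2) and a median of -0.25, beside 0.02 over all genes; 45.5% of 12464 genes were below 0. The differences were small: 0 of the 8 reached 2-fold or 1.5-fold in either direction, beside 0.489% and 3.06% of all genes. Lss was 1.33-fold lower (1.03 to 1.74), Sqle 1.26-fold lower (1.08 to 1.48) and Idi1 1.23-fold lower (1.08 to 1.40). Hmgcs1 was 1.20-fold lower (1.11 to 1.29), and so was Insig1 (1.06 to 1.36). These 5 genes had intervals wholly below 1, as did 19.4% of all genes. The ratios of Fdft1 and Cyp51, 0.868 and 0.928, had intervals that include 1, and Srebf2 stood at 0.998 (0.935 to 1.07). The genes share the 2 libraries compared, so their common direction is not 8 separate observations.

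In non-infarcted tissue the order was not the same: 6 of the 8 were above 0 and 2 below, where 46.3% of all genes were below 0. The median log2 ratio of the 8 was 0.07, beside 0.01 over all genes. None reached 2-fold or 1.5-fold, against 0.442% and 1.75% of 12226 genes. Insig1, at 1.22-fold higher (1.02 to 1.46) in the labelled knockout, was the 1 gene of the 8 whose interval did not include 1. Hmgcs1 and Sqle had ratios of 0.961 (0.877 to 1.05) and 0.912 (0.672 to 1.24).

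The log2 infarct ratio in the labelled knockout was below that in wild type for all 8 genes, as it was for 50.3% of 12716 genes. The difference was -0.49 for Insig1, -0.39 for Lss, -0.32 for Idi1, -0.25 for Fdft1, -0.24 for Cyp51, -0.20 for Sqle, -0.19 for Hmgcs1 and -0.08 for Srebf2. The median was -0.24, beside -0.00 over all genes. These values use the same libraries as the comparisons above, so they restate them on 1 scale and add no evidence. All 8 genes stayed below 0 in this difference and in the infarcted genotype comparison under both rescalings.

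The other 15 enzymes of the pathway were described beside the 8 genes. Infarcted tissue was above 0 on the log2 scale for 13 of 15 in wild type and 14 of 15 in the labelled knockout, with medians of 0.58 and 0.42. That leaves 2 and 1 of the 15 below 0, where 32.8% and 33.7% of all genes were. At 1.5-fold 7 of the 15 were higher in each genotype, against 21.6% and 25% of all genes. Pmvk in wild type and Mvk, Pmvk and Tm7sf2 in the labelled knockout fall below 0 under median-ratio scaling, although Mvk stays at 0.00 under TMM.

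Mvk, mevalonate kinase, had 4.78, 8.63, 5.27 and 6.23 RPKM and ratios of 1.80 (1.45 to 2.26) and 1.18 (0.940 to 1.49). In infarcted tissue Mvk was 1.39-fold lower (1.15 to 1.68) in the labelled knockout.

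Fdps, farnesyl diphosphate synthase, was 1.96-fold and 1.69-fold higher in infarcted tissue of wild type and labelled knockout, and Mvd, the mevalonate diphosphate decarboxylase, 1.66-fold and 1.78-fold. Acat2 and Pmvk, the thiolase and a kinase of the early pathway, had ratios of 1.28 and 1.28, and of 1.13 and 1.02. Of the enzymes that strip lanosterol's methyl groups, Sc4mol (Msmo1) had ratios of 2.09 and 1.64, and Nsdhl of 2.10 and 1.40. Lbr, a sterol reductase of the nuclear envelope, had ratios of 1.67 and 1.64. The late enzymes Ebp, Sc5d and Dhcr7 were closer to 1, at 1.39 and 1.32, 1.32 and 0.953, and 1.46 and 1.28. Tm7sf2, a second sterol reductase, had 27 to 39 reads and intervals that include 1 in both genotypes.

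Hsd17b7, a ketoreductase of sterol demethylation, was the exception. In wild type it had 351 reads in non-infarcted and 336 in infarcted tissue (5.15 and 4.26 RPKM), but 55 and 157 (0.841 and 1.89 RPKM) in the labelled knockout. Both libraries labelled knockout lay below both wild-type libraries, by 6.12-fold (4.60 to 8.29) in non-infarcted and 2.26-fold (1.86 to 2.75) in infarcted tissue. No other of the 23 synthesis and feedback genes counted here reached 1.5-fold between genotypes on the log2 scale. Reads covered 89.1% and 85.3% of its model in wild type and 38.9% and 69.8% in the labelled knockout.

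Over all 21 enzymes, 6 of them among the 8 genes, 18 were below 0 in the infarcted genotype comparison, as were 45.5% of all genes. The infarct ratio was lower in the labelled knockout for 17 of the 21 and for 50.3% of all genes. The enzymes share the same libraries, so these counts are not separate observations.

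**Figure D2:**
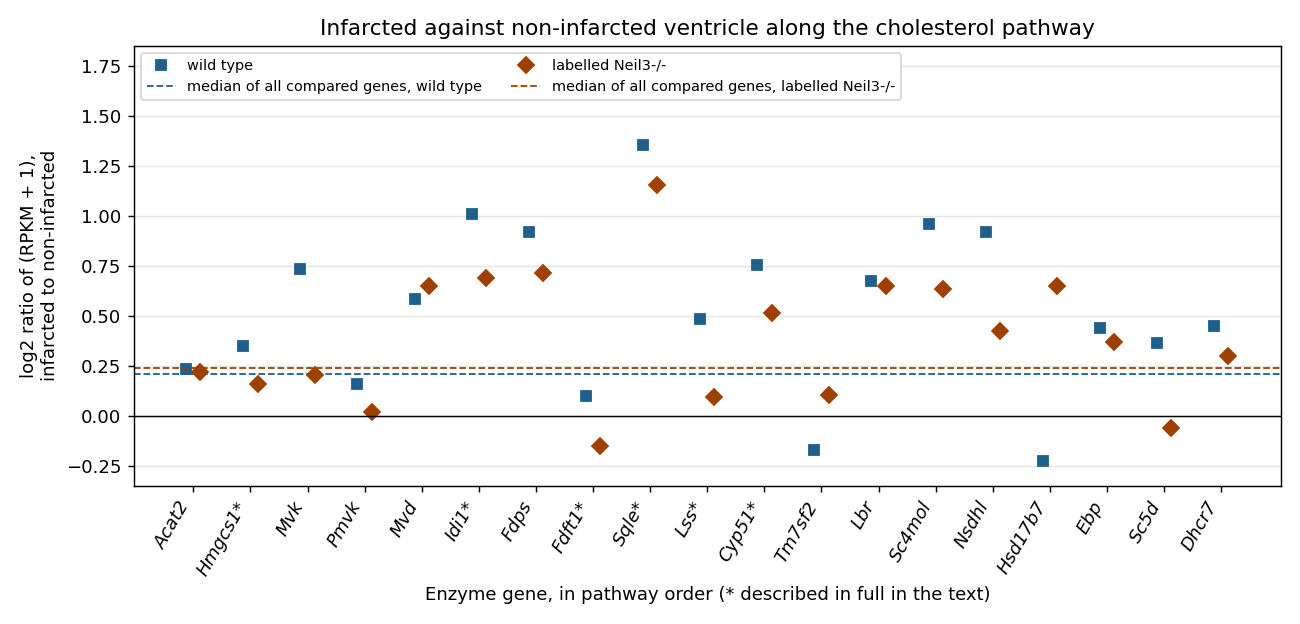
Log2 ratio of RPKM + 1, infarcted to non-infarcted, for 19 enzymes in pathway order, wild type (squares) and labelled knockout (diamonds), with the median of all compared genes dashed (0.21 and 0.24). On the deposited scaling the points below 0 are Tm7sf2 and Hsd17b7 in wild type and Fdft1 and Sc5d in the labelled knockout; Fdft1 and Pmvk in wild type and Hmgcs1, Mvk, Pmvk, Lss and Tm7sf2 in the labelled knockout fall below 0 under median-ratio scaling.

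Srebf1 and the genes that process or hold back SREBP were, as a list, closer to the median gene than the 8 genes were. The 7 genes of this list had median log2 infarct ratios of 0.14 and 0.15. On that scale of RPKM + 1, 0 of 7 reached 1.5-fold in either genotype. Of all genes, 21.6% and 25% were 1.5-fold higher and 9.56% and 12.4% lower. As ratios of RPKM, the values were as follows. Srebf1, which encodes the SREBPs of fatty acid synthesis, was 1.52-fold (1.38 to 1.67) and 1.44-fold (1.31 to 1.59) higher. Mbtps1, the site-1 protease, was 1.34-fold and 1.28-fold higher, and Mbtps2, the site-2 protease, 1.12-fold and 1.44-fold, with the wild-type log2 value of Mbtps2 below 0 under both rescalings. Insig2, the INSIG gene that does not depend on SREBP, had 17.8, 15.7, 17.7 and 13.3 RPKM and was 1.13-fold (1.02 to 1.27) and 1.33-fold (1.19 to 1.49) lower in infarcted tissue, opposite to Insig1.

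Of 12 genes of lipoprotein and cholesterol uptake, 11 had enough RPKM to be compared, and their median log2 infarct ratios were 0.71 and 0.79. On the log2 scale 8 of the 11 uptake genes were above 0 in the infarcted genotype comparison and 3 below. Over all genes 45.5% were below 0. The median of the 11 was 0.22, beside 0.02 over all genes. Vldlr, at 0.03, is below 0 under median-ratio scaling.

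Vldlr, the VLDL receptor of muscle and fat, went the other way with infarction: 30.5, 11.8, 35.4 and 12.1 RPKM, or 2.58-fold (2.44 to 2.74) and 2.93-fold (2.77 to 3.09) lower. Tmem97, the sigma-2 receptor, which binds the lysosomal transporter NPC1, was 2.17-fold and 2.67-fold higher, and Npc2, the lysosomal cholesterol carrier, 2.03-fold and 1.86-fold.

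Genes of export, esterification and oxysterol formation had medians of 0.65 and 0.82, beside 0.21 and 0.24 over all genes. Of 9 compared, 3 passed 2-fold upward in each genotype, against 6.21% and 8.2% of all genes. Ch25h, which makes 25-hydroxycholesterol, an inhibitor of SREBP processing, had 4.72, 15.8, 5.64 and 13.5 RPKM and ratios of 3.35 (2.67 to 4.24) and 2.40 (1.93 to 3.00). Soat1, which esterifies cholesterol for storage, was 2.76-fold and 2.93-fold higher, and Cyp7b1, an oxysterol hydroxylase, 2.22-fold and 3.60-fold from 24 to 110 reads. Apoe, which carries cholesterol out of macrophages, had 276, 572, 519 and 914 RPKM. Both labelled knockout libraries were above the wild-type library of the same tissue for Apoe and for Soat1, by 1.60-fold and 1.39-fold in infarcted tissue. In infarcted tissue, though not in non-infarcted, this was the opposite direction to most of the 8 genes. Of the 9 compared there, 7 were above 0 and 2 below, where 45.5% of all genes were below 0. Ch25h was 1 of the 2 below 0, with an interval wholly below 1.

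**Figure D3:**
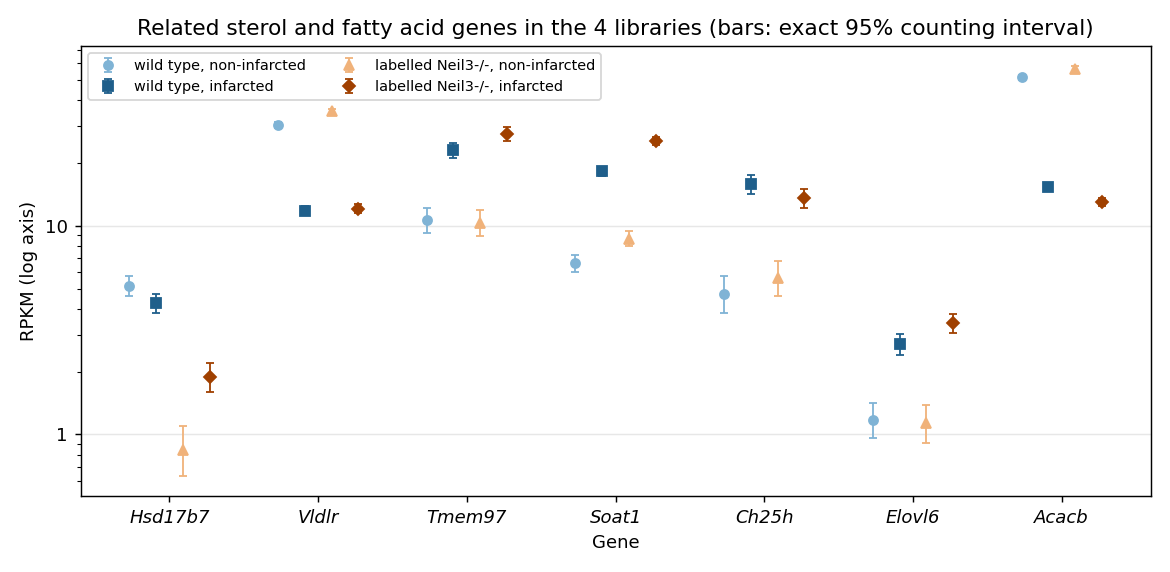
RPKM (log axis) of 7 related sterol and fatty acid genes in the 4 libraries; points are single libraries and bars are exact 95% counting intervals. Hsd17b7 has both libraries labelled knockout (0.841 and 1.89 RPKM) below both wild-type ones (5.15 and 4.26), and Vldlr and Acacb are lower in infarcted tissue where the other 4 genes are higher.

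Genes of fatty acid synthesis, which SREBP-1 drives, had medians of 0.54 and 0.68. Acly, the source of cytosolic acetyl-CoA for both pathways, was 1.73-fold and 1.69-fold higher, Scd2, a desaturase, 1.84-fold and 1.97-fold, and Elovl6, an elongase, 2.31-fold and 3.02-fold. Acacb, the acetyl-CoA carboxylase that restrains fatty acid oxidation in muscle, was 3.37-fold (3.21 to 3.53) and 4.37-fold (4.16 to 4.60) lower. Genes that use mevalonate products for purposes other than sterols had medians of -0.05 and -0.10. Between genotypes in infarcted tissue, 6 of these isoprenoid genes were below 0 and 2 above, with a median of -0.08. The log2 infarct ratio was lower in the labelled knockout for 7 of them and higher for 1, with a median difference of -0.16. Over all genes 45.5% and 50.3% were below 0, so the lower values were not particular to the 8 genes. Pdss2, Pdss1 and Coq2 of coenzyme Q synthesis were lower in infarcted tissue, by 1.93-fold and 2.34-fold, 1.22-fold and 1.40-fold, and 1.36-fold and 1.52-fold. Fntb, a farnesyltransferase subunit, was 1.49-fold higher in wild type and 1.09-fold in the labelled knockout, the second value with an interval that includes 1 and a log2 value below 0 under both rescalings.

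**Figure D4:**
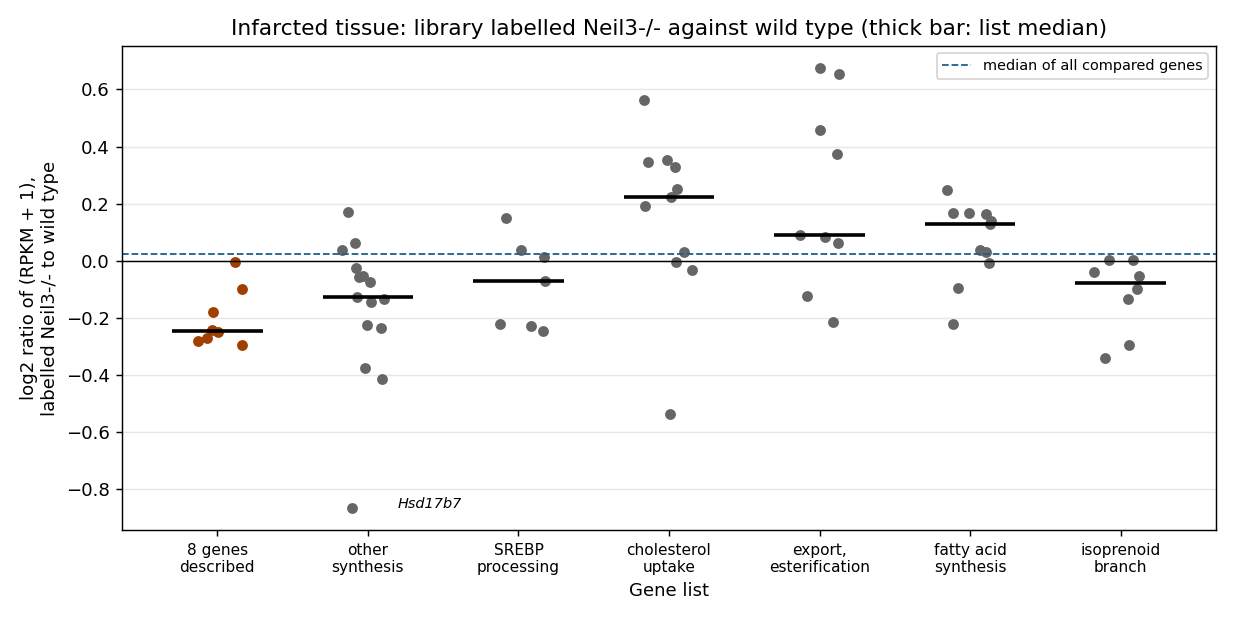
Log2 ratio of RPKM + 1 in infarcted tissue, library labelled knockout to wild type, for the 8 genes and 6 related lists; each point is 1 gene, thick bars are list medians and the dashed line is the median of all compared genes (0.02). The 8 genes lie between -0.29 and -0.00, and Hsd17b7 lies at -0.86.

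Because the libraries are of whole tissue, fewer cells of a type and less RNA per cell cannot be told apart. Several lists of cell type markers differed in both comparisons. All 11 cardiomyocyte markers were lower in infarcted tissue, with summed levels of 36989 and 17904 RPKM in wild type and 35618 and 11972 in the labelled knockout, and all 11 were lower in the labelled knockout within infarcted tissue (median log2 ratio -0.59). Macrophage and monocyte markers summed to 424 and 1122 RPKM in wild type and 693 and 1551 in the labelled knockout, and 9 of 10 were higher in infarcted tissue of each genotype. Between genotypes in infarcted tissue 10 of 10 were above 0, although Cd163, at 0.00, is below 0 under both rescalings. Neutrophil markers, of which 9 were found and 7 compared, summed to 30.0 and 222.9 RPKM and to 25.9 and 260.6; Elane was at 0 in both non-infarcted libraries and Mpo in the one labelled knockout. Fibroblast markers summed to 2571, 4121, 3123 and 5747 RPKM, endothelial markers to 388, 613, 381 and 595, and cell cycle markers to 72.5, 164, 90.9 and 237. The sums hide markers that were lower in infarcted tissue. Of 10 fibroblast markers, 3 were lower in wild type (Dcn, Lum and Postn) and 1 in the labelled knockout (Dcn). Of 8 endothelial markers, 1 was lower in each genotype (Kdr). Over all genes 32.8% and 33.7% were below 0 with infarction. All 10 fibroblast and all 10 cell cycle markers were higher in the infarcted labelled knockout than in infarcted wild type. Endothelial markers went the same way as the 8 genes there: 7 were below 0 and 1 above, with a median log2 ratio of -0.07. Over all genes 45.5% were below 0 in that comparison. Adipocyte markers, 3 of 7 of which could be compared, had medians of -0.01 and -0.09 for infarction. The part of these markers in the levels of the 8 genes was not tested.

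The mean profile of the 8 genes, as log2(RPKM + 1) centred over the 4 libraries, was -0.33, 0.39, -0.26 and 0.19. Cyp51 lay closest to it, at a Euclidean distance of 0.103, followed by Insig1 at 0.156 and Srebf2 at 0.221, and Fdft1 and Sqle were farthest, at 0.613 and 0.680. Of 9631 other genes with at least 5 RPKM in a library, the 10 closest were Arhgap23 (0.011), Myadm (0.025), Mical2 (0.029), Pdgfb (0.030), Pkn3 (0.038), March3 (0.041), Daxx (0.042), Dpp3 (0.048), Rps14 (0.050) and Usp53 (0.053). Arhgap23, for example, had 17.4, 29.3, 18.4 and 25.6 RPKM. Rps14 is a ribosomal protein gene of a kind with many near-identical copies in the genome, so its unique count is uncertain. With 4 points to a profile such likeness is common, and 600 of the 9631 genes were closer than 0.2, nearer than 6 of the 8 genes were.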

How the data were processed

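The authors deposited, for each library, unique read counts per gene with RPKM and, in percent, the coverage of the gene model, per the file headers. The submitters' processing notes name build mm9; the sources used here do not give aligner, counting tool, annotation or strand handling. RPKM equals reads over length and over the library's total. Genes absent from a library were given 0 reads.

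From these values the ratio of RPKM was computed with an exact Clopper-Pearson 95% interval (scipy 1.17.1), which covers counting error only; reads are not independent molecules. Log2 ratios of RPKM + 1 were taken for genes with at least 1 RPKM in 1 of the libraries compared and called at 2-fold, with 1.5-fold as a second rule. The computation was tested on simulated data. Alternatives were pseudocounts of 0.1 and 0.5, filters of 0 and 5 RPKM, and TMM (edgeR 4.0.16) or median-ratio scaling.

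Named were the 8 genes, the other synthesis enzymes and the 10 genes of most similar profile. From each related list came the 4 genes with the largest absolute log2 infarct ratio, up or down, in either genotype. A few genes that this rule names are not reported here. The genes and lists were chosen with earlier results of these data known.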

Additional observations from a re-analysis of the deposited data

Results flagged for a closer look

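Hsd17b7 had opposite infarct ratios in the genotypes: 0.826 (0.709 to 0.962) in wild type and 2.24 (1.64 to 3.11) in the labelled knockout. Its log2 ratio of RPKM + 1 was 0.88 higher in the labelled knockout. With 1 library a group this difference was not tested.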

How the results depend on the processing

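TMM and median-ratio scaling each left 1 of the 8 genes at least 2-fold higher with infarction in wild type in place of 2, and 0 in the labelled knockout in place of 1, beside 3.58% to 3.64% and 4.12% to 4.37% of all genes. The call at 1.5-fold gave 5 and 3, and a pseudocount of 0.1 gave 3 and 1, the latter beside 10.1% and 12.6% of all genes. Combining either scaling with 1.5-fold, chosen after seeing the data, gave 3 and 1, beside 12.4% to 12.7% and 14.0% to 14.8% of all genes, so the share in the labelled knockout is near that of all genes. The median log2 ratio in the labelled knockout was 0.24 under median-ratio scaling in place of 0.47. Both scalings divide infarcted libraries by larger factors (1.07 to 1.10) than non-infarcted ones (0.914 to 0.929), which lowers every infarct ratio. Over all settings the wild-type median was 0.56 to 0.84, and the medians of the infarcted genotype comparison and of the difference of infarct ratios were each between -0.28 and -0.24. The filter at 5 RPKM removed Lss, and in the non-infarcted genotype comparison also Idi1 and Sqle. With 1 library a group, no library could be left out. For the same reason no paired analysis was possible, and the labels give no replicate numbers.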

Other observations

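The deposited annotation of biological process names cholesterol biosynthetic process for 2 genes, Cyp51 and Sc5d, and the wider cholesterol metabolic process for 45 genes, 5 of them among the 8. This wider list was chosen after seeing the data. Of its 36 compared genes, 25 were above 0 for infarction in wild type and 27 in the labelled knockout, with medians of 0.44 and 0.26. The other 11 and 9 were below 0, as were 32.8% and 33.7% of all genes, whose medians were 0.21 and 0.24. In wild type 4 of the 36 passed 2-fold upward and 4 downward, against 6.21% and 3.6% of all genes. In the labelled knockout 1 passed it upward and 5 downward, against 8.2% and 6.07%. Without the 5 shared genes, the medians were 0.44 and 0.30.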
